A study of Mus musculus with 9 samples.

Results

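The cytosolic ribosomal proteins are the protein parts of the ribosome that translates nuclear-encoded mRNAs, as opposed to the ribosome inside mitochondria. They were taken here as the protein-coding genes of the GENCODE M21 annotation (GRCm38) whose symbol is Rpl or Rps followed by a number, together with Rplp0, Rplp1, Rplp2 and Rpsa. The Rps6k kinases and names containing -ps were left out. The suffix -ps is used for pseudogenes, though GENCODE M21 annotates Rpl10-ps3, Rpl9-ps6, Rpl36a-ps1 and Rps12-ps3 as protein-coding. This gave 86 genes, 85 of them with at least 1 count, among 26602 genes counted in all. A total of 84 passed the filter of at least 10 counts over the 9 libraries, which 18127 genes passed in all. The rule uses names only and no measured value except that filter. By subunit the 86 genes were 49 Rpl genes of the large subunit, the 3 stalk genes Rplp0, Rplp1 and Rplp2, and 34 Rps genes with Rpsa of the small subunit. By role, 77 were canonical genes, 8 were copy genes such as Rpl22l1 and Rps27l, and 1 (Rps19bp1) encodes a protein that binds a ribosomal protein.

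The libraries came from midbrain tissue that included the substantia nigra, taken from 4 wild-type (DJ-1+/+) mice and 5 knockout (DJ-1-/-) mice aged 3 to 4 months. DJ-1-/- mice carry a targeted Park7 allele on both chromosomes and in every tissue, had been backcrossed to C57BL/6, and came with their DJ-1+/+ controls from heterozygous parents. No mouse was treated, and each library was 1 animal. The comparison asks which midbrain mRNAs differ when DJ-1 is missing in young adults. QuantSeq 3′ libraries were sequenced, which read 1 fragment near the poly(A) end of each mRNA molecule, and unique molecular identifiers (UMIs) let copies of a molecule be counted once. A count is thus a molecule and does not grow with transcript length, so counts per 1000000 counts of the library (cpm) can be set side by side between genes. Since whole tissue was used, fewer cells of a type and less RNA per cell cannot be told apart.

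A ribosome has a small subunit, which holds the mRNA and reads its codons, and a large subunit, which joins the amino acids. Each ribosome carries nearly every ribosomal protein once, apart from the acidic stalk proteins, which bring in the elongation factors. The mRNAs of these proteins share a 5′ terminal oligopyrimidine tract, a C at the first transcribed base followed by a run of C and T, through which the mTOR pathway and the protein LARP1 control their translation. Much of their control thus acts on translation, which mRNA counts do not measure. In neurons ribosomes fill the cell body and also lie in dendrites and axons, and DJ-1 itself is best known as a sensor of oxidative stress and a gene of early-onset Parkinson's disease.

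The bases around the transcription start were read because the naming rule did not use them and mRNAs of these genes are known for a run of pyrimidines at the 5′ end. The median run was 4 bases over the promoters of the family and 3 over all promoters, and most of these promoters have no run of 8 or more. Start sites were found in RefSeq (GRCm38.p6) for 66 of the 86 genes, with 78 promoters in all, and windows of 15 bases before the start and 15 bases from the start on were read on the coding strand. Capitals mark the longest run of C and T that touches the bases from 5 before to 5 after the first transcribed base, and where a gene has several starts the one with the longest run is shown. The genes are the 7 with an unadjusted p under 0.05 between genotypes, followed by Rps6 and by Rps27 with its retrogene Rps27rt.
Rpl10a, chr17:28328456-28328485, plus strand: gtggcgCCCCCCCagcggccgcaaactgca
Rpl31, chr1:39367836-39367865, plus strand: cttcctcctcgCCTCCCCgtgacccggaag
Rps15a, chr7:118116133-118116162, minus strand: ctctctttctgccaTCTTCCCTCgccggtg
Rps9, chr7:3704026-3704055, plus strand: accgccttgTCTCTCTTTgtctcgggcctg
Rps21, chr2:180257364-180257393, plus strand: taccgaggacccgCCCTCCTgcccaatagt
Rpl38, chr11:114668565-114668594, plus strand: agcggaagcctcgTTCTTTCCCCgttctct
Rpl9, chr5:65391417-65391446, minus strand: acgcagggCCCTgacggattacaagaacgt
Rps6, chr4:86857353-86857382, minus strand: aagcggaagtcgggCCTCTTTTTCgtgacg
Rps27, chr3:90213634-90213663, minus strand: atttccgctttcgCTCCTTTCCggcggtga
Rps27rt, chr9:114982725-114982754, minus strand: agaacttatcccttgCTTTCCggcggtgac
A run of at least 8 such bases stood at 24 of the 78 promoters (30.8%), against 9.72% of all 32851 promoters of the table. The first transcribed base was a C in 29.5% of the promoters of these genes and in 16.3% of all promoters. The letters CTTTC occurred on the coding strand within the 30-base window in 23.1% of the promoters of these genes and in 4.05% of all. Over the whole 300 bases of a promoter and on both strands, CCGGAAG, the letters that Ets factors bind, occurred in 34.6% against 8.86% of all promoters. The letters of Sp1 (GGGCGG) occurred in 60.3% against 35.7%, and those of YY1 (AAGATGG) in 15.4% against 6.34%. Of the genes shown, Rpl38, Rps6, Rps15a, Rps9 and Rps27 have runs of 9 or 10 bases at the start, while Rpl9 has 4 and Rpl10a a run of C alone. A match is a description of letters and not a bound site, and start sites in the table can lie a few bases from those used in midbrain.

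Library totals ran from 841974 to 886085 counts in wild-type and from 967751 to 1098125 in DJ-1-/- mice, so every DJ-1-/- library was deeper, and depth and genotype cannot be told apart here. The floor of 3 counts that a count of 0 allows stood for 2.73 to 3.56 cpm, and these floors and the intervals below cover counting error only. Park7 had 132, 105, 113 and 118 counts in the wild types and 23, 29, 14, 19 and 19 in the DJ-1-/- mice, and the log2 fold change of −2.71 (SE 0.15, edgeR, Benjamini-Hochberg adjusted p = 7.39e-08) fitted the genotype labels. Markers of dopaminergic neurons (10 of 10 genes with counts) were present in every library. They summed to 723, 1014, 578 and 497 cpm in the wild types and to 857, 950, 920, 1059 and 734 cpm in the DJ-1-/- mice. All wild types but mouse 2 thus lay below every DJ-1-/- mouse, and the part of this in the results below was not tested. Markers of cerebellar neurons (8 of 8 genes) summed to 1251 cpm in DJ-1+/+ mouse 1 and to 347 to 599 in the others. Markers of the choroid plexus (15 of 15 genes) summed to 1125 cpm in DJ-1+/+ mouse 4, 460 in DJ-1+/+ mouse 1 and 184 to 311 in the others. Xist, expressed from the inactive X of females, had 146 to 193 counts in 6 libraries and at most 2 in DJ-1+/+ mice 1 and 4 and DJ-1-/- mouse 5. The labels give no sex. Ddx3y, on the Y chromosome, had 121 and 113 counts in DJ-1+/+ mice 1 and 4, 152 in DJ-1-/- mouse 5 and at most 4 in the others. By both genes DJ-1+/+ mice 1 and 4 and DJ-1-/- mouse 5 were male, so sex was not balanced between the genotypes. The share of counts and the gene counts are given below with and without DJ-1+/+ mice 1 and 4.

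The cytosolic ribosomal protein genes took a slightly larger share of the counts in DJ-1-/- midbrain. Their 86 genes summed to 1.245, 1.291, 1.280 and 1.233% of counts in wild-type mice and to 1.354, 1.338, 1.292, 1.307 and 1.322% in the DJ-1-/- mice. The groups did not overlap, but DJ-1+/+ mouse 2 and DJ-1-/- mouse 3 were almost equal, with exact (Clopper-Pearson) 95% intervals of 1.27 to 1.31% in both. The mean was 1.26 ± 0.028% (SD, n = 4) in wild-type and 1.32 ± 0.025% (SD, n = 5) in DJ-1-/- mice, 1.05-fold higher. The low DJ-1+/+ values were those of mice 1 and 4, the libraries with the most cerebellar and choroid plexus RNA and without Xist. DJ-1-/- mouse 5, also without Xist and with 583 cpm of cerebellar markers, had a share of 1.322%. The part of sex or dissection in the shares was not tested. With DJ-1+/+ mice 2 and 3 as the only controls the difference between the means was 0.0372 percentage points, against 0.0603 with all libraries, and in the libraries with Xist alone it was 0.0373. When counts of the -ps genes named after a member were added to them, the share was 1.35 to 1.43% in wild-type and 1.42 to 1.49% in DJ-1-/- mice, and the groups overlapped.

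**Figure D1:**
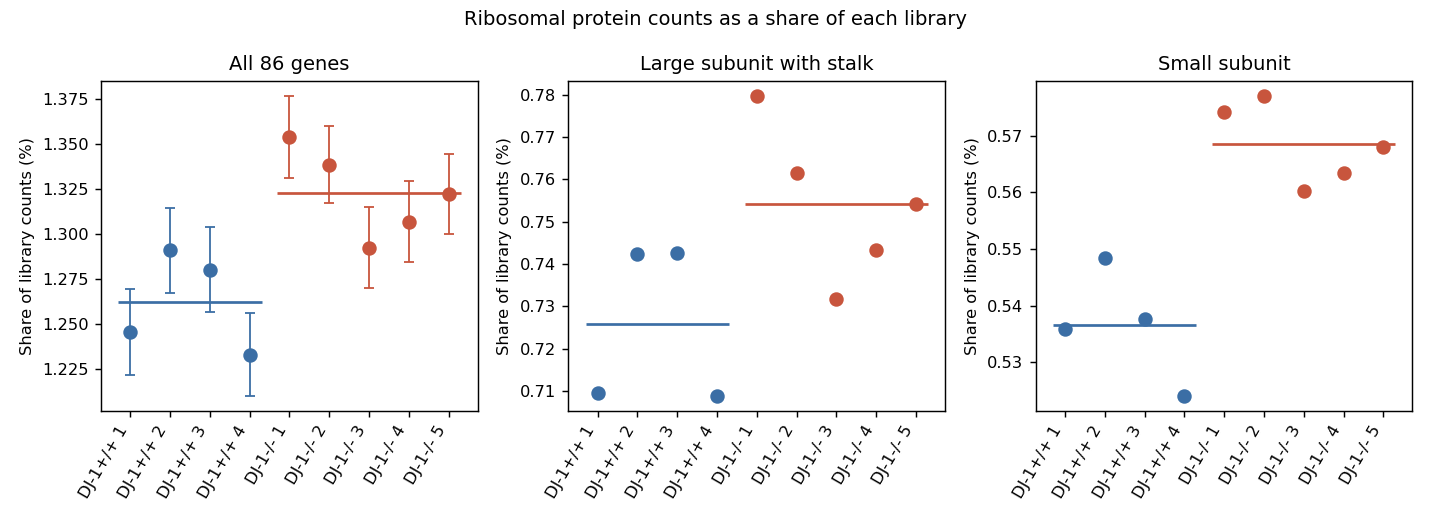
Summed counts of the cytosolic ribosomal protein genes as a share of all counts of each library (%, vertical axes not starting at 0), for all 86 genes with exact 95% intervals, for the large subunit with the stalk, and for the small subunit. Points are mice and lines are group means; the small subunit separates the genotypes (0.524 to 0.548% against 0.560 to 0.577%) and the large subunit does not (0.709 to 0.742% against 0.732 to 0.780%).

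The small subunit genes showed this without overlap and the large subunit genes with overlap, as the plot of shares by library shows. Small subunit genes took 0.537 ± 0.010% (SD, n = 4) of counts in wild-type and 0.569 ± 0.0070% (SD, n = 5) in DJ-1-/- mice. Large subunit and stalk genes took 0.726 ± 0.019% and 0.754 ± 0.018%. The counts of small subunit genes per count of large subunit genes were 0.724 to 0.755 in wild-type and 0.736 to 0.766 in DJ-1-/- mice, and the groups overlapped. In each library the number of genes above their own mean over the 9 libraries was counted, for the 82 genes with at least 90 counts. It was 25, 42, 38 and 24 in wild-type mice and 61, 56, 41, 50 and 47 in the knockouts, so DJ-1+/+ mouse 2 and DJ-1-/- mouse 3 again stood side by side, here with their groups overlapping.

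**Figure D2:**
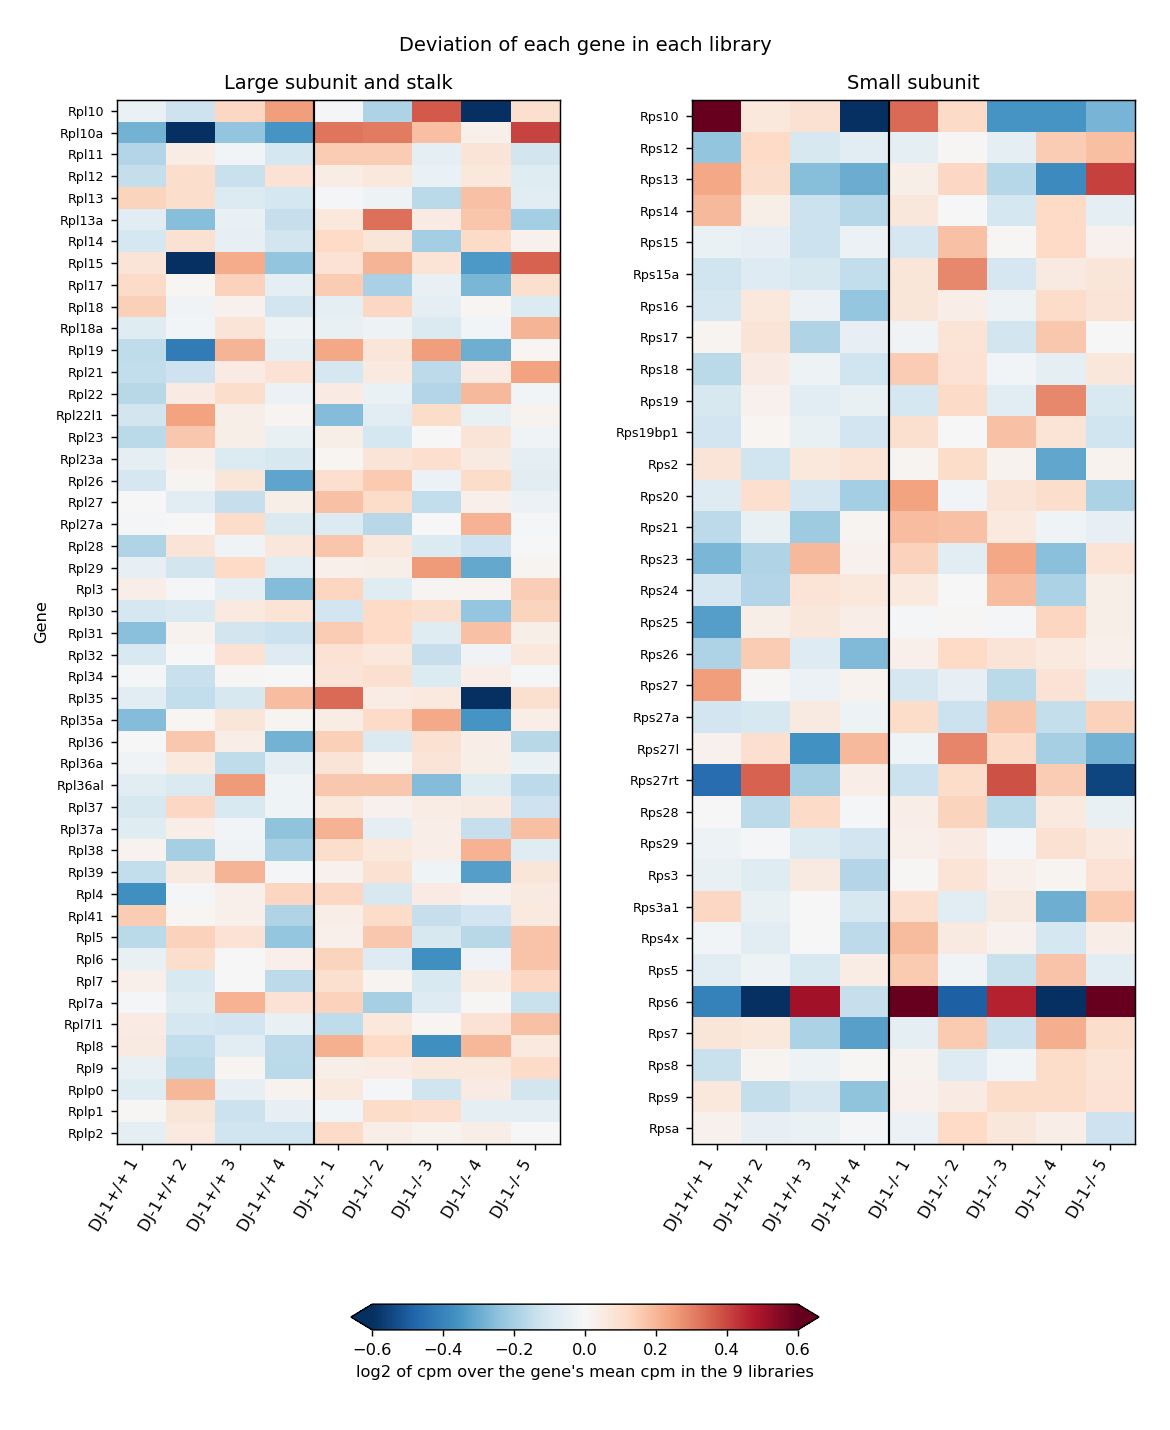
Deviation of the 82 genes with at least 90 counts (rows, all but 1 gene drawn) in each library (columns) as log2 of the cpm over the gene's mean cpm in the 9 libraries, blue below and red above the mean, with a black line between genotypes and colours capped at ±0.6. Most rows are pale; Rps6, Rps10, Rpl15, Rpl35, Rps27rt, Rpl10 and Rpl10a hold the strong colours, and more cells are red in DJ-1-/- mice 1 and 2 (61 and 56 genes above their mean) than in DJ-1+/+ mice 1 and 4 (25 and 24).

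Gene by gene the differences were small. At an adjusted p under 0.05, edgeR's quasi-likelihood test called 0 of the 84 genes (0.00552% of all tested genes, which is Park7 alone), and DESeq2 called 0 as well. At an unadjusted p under 0.05 it called 7 of 84 genes (8.33%), all higher in DJ-1-/- mice, where the background over all tested genes was 2.83% in either direction and 1.57% higher in DJ-1-/- mice. DESeq2 called 2 of 84 (2.38%) at that threshold, where it called 1.30% of all genes. The log2 fold change was above 0 for 67 of the 84 genes (79.8%), against 51.9% of all tested genes. As a median, the 84 genes had a log2 fold change of 0.066 and all tested genes one of 0.0079. Among the 8851 other genes with a mean between 35.1 and 273 cpm, the range from the 5th to the 95th percentile of the family, the median was −0.0019, 49.4% were above 0 and 2.42% had an unadjusted p under 0.05. These genes are measured in the same libraries and their deviations are not independent, so the counts are a description. The 7 became 4 (4.82%) on counts thinned to the smallest library total, against 2.87% of all genes. They became 4 without DJ-1-/- mouse 1 (4.76%, against 2.52%) or mouse 2 (4.82%, against 1.90%). Without DJ-1+/+ mouse 4 there were 3 (3.57%, against 3.21%), and without DJ-1-/- mouse 4 also 3 (3.61%, against 3.07%), both near the background. Without DJ-1+/+ mouse 1, 2 or 3 there were 5 (5.95%, against 2.33, 4.10 and 3.41%). Without DJ-1-/- mouse 3 there were 6 (7.23%, against 2.46%), and without DJ-1-/- mouse 5 there were 7 (8.33%, against 3.65%). With DJ-1+/+ mice 2 and 3 as the only controls 2 of 83 genes (2.41%) had such a p, below the 2.66% of all genes, 58 (69.9%, against 51.6%) were above 0 and the median was 0.043. In the libraries with Xist alone it was again 2 of 83, below the 2.90% of all genes, with 56 (67.5%, against 50.8%) above 0 and a median of 0.033. The excess at an unadjusted p under 0.05 was thus not seen with DJ-1+/+ mice 1 and 4 both left out. Only 2 controls remain in these fits, which lowers their power.

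**Figure D3:**
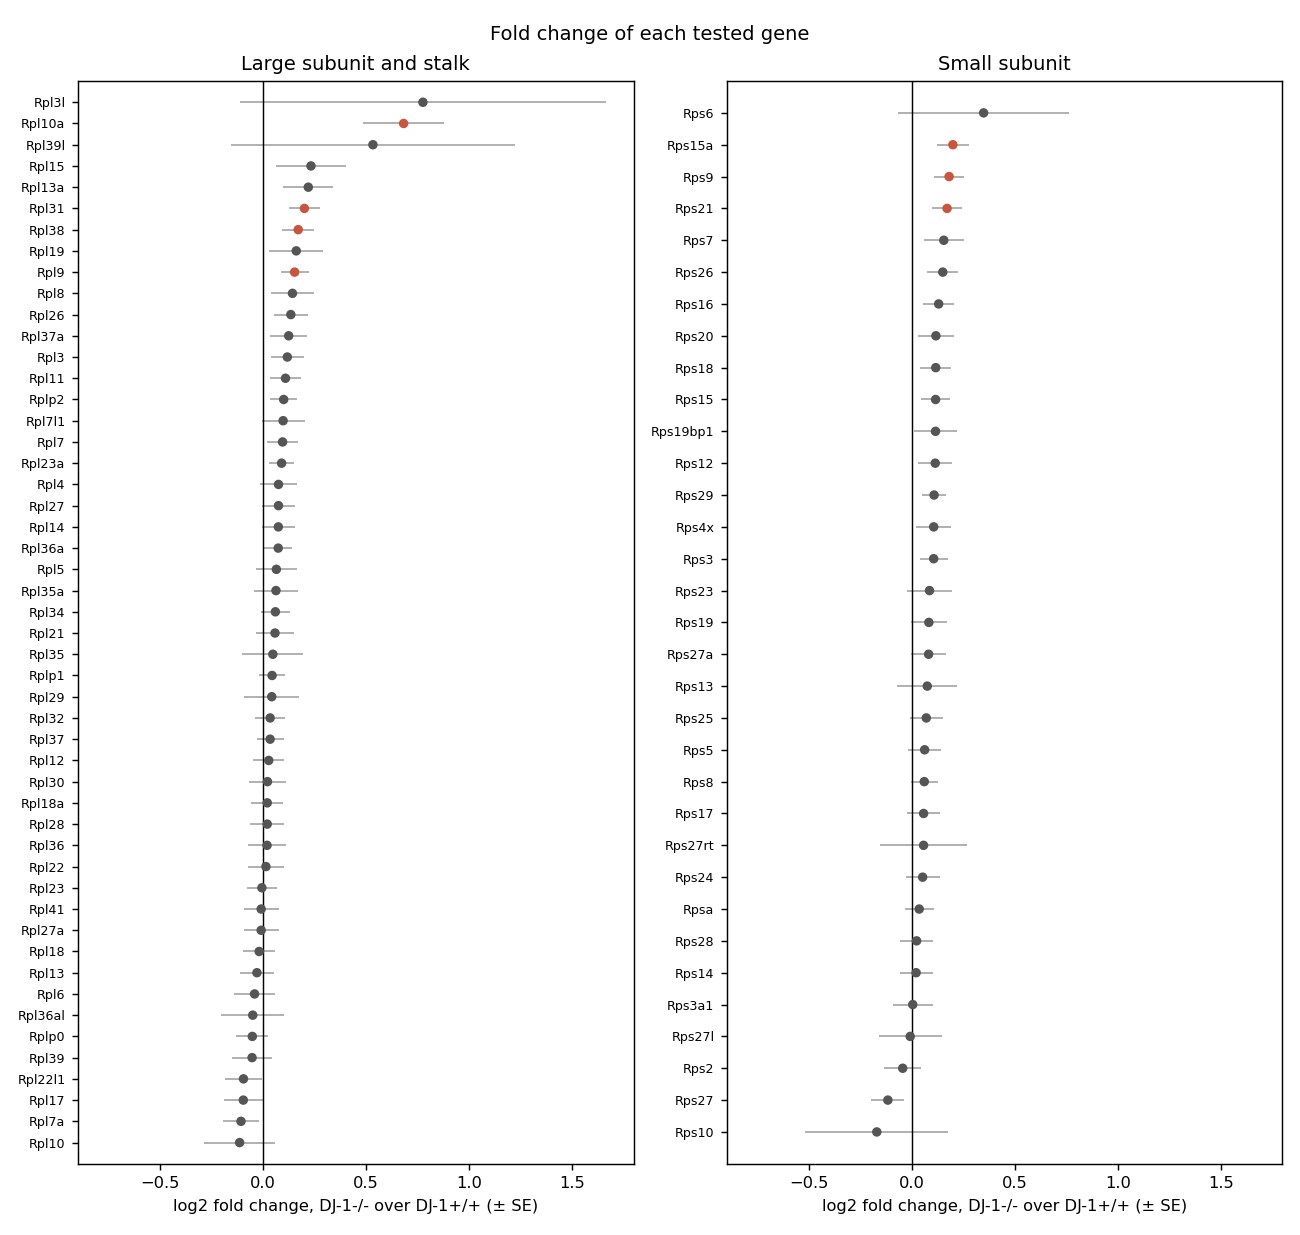
Log2 fold change (DJ-1-/- over DJ-1+/+, edgeR) with its standard error for the 50 tested genes of the large subunit and stalk and the 34 of the small subunit (all but 1 drawn), ordered by size. Red points have an unadjusted p under 0.05 (Rpl10a, Rpl31, Rpl38 and Rpl9; Rps15a, Rps9 and Rps21), and 67 of the 84 genes lie right of 0.

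By subunit, 35 of 47 tested Rpl genes (74.5%) had a log2 fold change above 0 with a median of 0.059, and 4 (8.51%) had an unadjusted p under 0.05. Of the 34 small subunit genes 30 (88.2%) were above 0 with a median of 0.080, and 3 (8.82%) had an unadjusted p under 0.05. Of the 76 canonical genes tested 62 (81.6%) were above 0 with a median of 0.066. Of the 7 copy genes 4 (57.1%) were above 0 with a median of 0.055, and 0 had an unadjusted p under 0.05 by edgeR. Over all tested genes 51.9% were above 0 and 2.83% had such a p. Differences between these groups were not tested.

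Rpl10a had the largest log2 fold change of the genes with at least 90 counts. It encodes the protein of the L1 stalk, the mobile arm of the large subunit beside which spent tRNA leaves, and lies on chromosome 17 from 28328471 to 28331033 on the plus strand. It was measured at 21.4, 14.8, 22.1 and 20.3 cpm in wild-type mice and at 33.0, 32.8, 29.9, 26.9 and 35.1 cpm in the DJ-1-/- mice. Every DJ-1-/- mouse was above every DJ-1+/+ mouse. The log2 fold change was 0.68 (SE 0.20, unadjusted p = 0.0034 by edgeR, adjusted p = 0.99997; exact two-sided permutation p = 0.0159, the smallest that 4 mice against 5 allow). It rests on few molecules, 13 to 19 counts per DJ-1+/+ library, for a gene at 26.2 cpm where the median of the family was 150.3 cpm. Of the 50-base stretches in its last 300 bases, 70.2% also occur in other annotated genes, most in the processed pseudogene Rpl10a-ps1. That pseudogene had 21, 22, 26 and 23 counts in the wild types and 31, 39, 22, 24 and 26 in the DJ-1-/- mice. With the counts of both added, the log2 fold change was 0.37 and the unadjusted p 0.0198 by edgeR. In cpm of both together DJ-1-/- mouse 4 lay below DJ-1+/+ mouse 3, so the groups then overlapped. The unadjusted p stayed under 0.05 in all 21 alternatives, between 0.00272 and 0.0198.

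**Figure D4:**
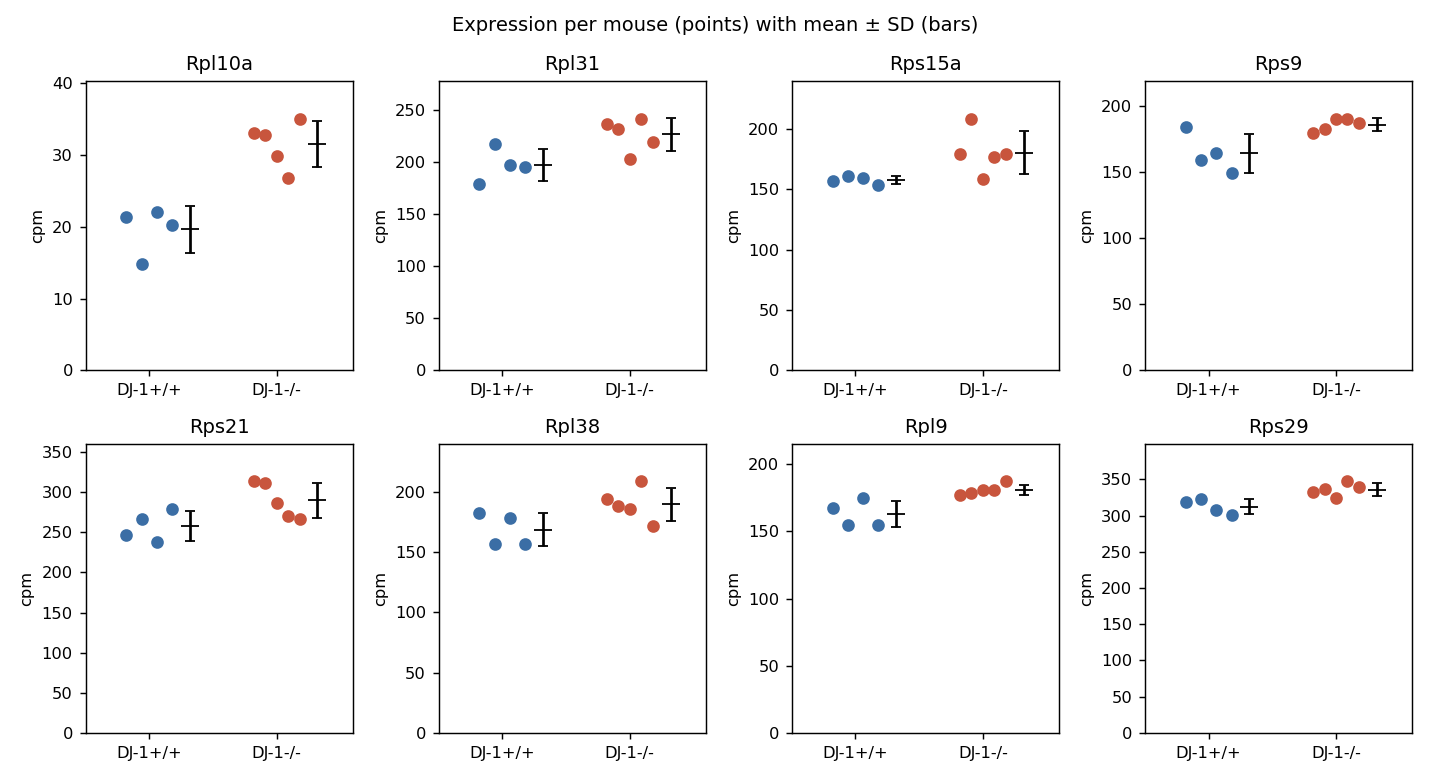
Expression in cpm (vertical axes from 0) of the 7 genes at an unadjusted p under 0.05 and of Rps29, each point 1 mouse, with the mean ± SD beside the points (DJ-1+/+ n = 4, DJ-1-/- n = 5). The groups do not overlap for Rpl10a, Rpl9 and Rps29 and overlap for the other genes.

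The other 3 large subunit genes with an unadjusted p under 0.05 differed far less. Rpl31, a protein beside the exit of the peptide tunnel, was at 179, 217, 198 and 195 cpm in the wild types and at 237, 232, 203, 242 and 219 cpm in the DJ-1-/- mice (log2 fold change 0.20, SE 0.075, edgeR unadjusted p = 0.0165, exact permutation p = 0.0317). DJ-1-/- mouse 3 lay below DJ-1+/+ mouse 2, so the groups overlapped in 1 pair of mice. Rpl38, whose loss in the Tail short mouse disturbs the axial skeleton, was at 183, 157, 178 and 157 cpm against 194, 189, 186, 209 and 172 cpm (log2 fold change 0.17, SE 0.078, edgeR unadjusted p = 0.0444, exact permutation p = 0.0794). DJ-1-/- mouse 5 lay below DJ-1+/+ mice 1 and 3. Rpl9 was at 167, 155, 175 and 155 cpm against 177, 178, 181, 181 and 187 cpm, with no overlap and with DJ-1+/+ mouse 3 close to DJ-1-/- mouse 1 (log2 fold change 0.15, SE 0.068, edgeR unadjusted p = 0.0470, exact permutation p = 0.0159).

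In the small subunit the lead genes were Rps15a, Rps9 and Rps21. Rps15a, which binds the central domain of 18S rRNA, was at 157, 161, 159 and 153 cpm in the wild types and at 179, 209, 159, 177 and 179 cpm in the DJ-1-/- mice (log2 fold change 0.20, SE 0.079, edgeR unadjusted p = 0.0243, exact permutation p = 0.0476). The DJ-1+/+ mice lay close together, and DJ-1-/- mouse 3 was among them. Rps9, a protein at the entry of the mRNA channel, was at 184, 159, 164 and 149 cpm against 179, 182, 190, 190 and 187 cpm (log2 fold change 0.18, SE 0.073, edgeR unadjusted p = 0.0253, exact permutation p = 0.0476), and DJ-1+/+ mouse 1 lay among the DJ-1-/- mice. Rps21, a small protein found in eukaryotic ribosomes, was at 247, 267, 237 and 279 cpm against 313, 311, 287, 271 and 266 cpm (log2 fold change 0.17, SE 0.074, edgeR unadjusted p = 0.0350, exact permutation p = 0.0794). DJ-1-/- mice 4 and 5 lay below DJ-1+/+ mouse 4. Of 21 alternatives the unadjusted p was under 0.05 in 17 for Rpl31, 16 for Rps15a, 14 for Rps9, 13 for Rps21, 8 for Rpl38 and 7 for Rpl9, and all 6 were higher in DJ-1-/- mice in each.

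Counted by overlap instead of by the test, 3 of 84 genes (Rpl10a, Rpl9 and Rps29) had every DJ-1-/- mouse above every DJ-1+/+ mouse and 0 the reverse, where 0.662% of all tested genes separated in that direction and 1.25% in either. The share of all genes rises too when a library is left out. Without DJ-1+/+ mouse 2 the number in either direction was 8 (9.52%, against 3.69% of all genes). It was 6 without DJ-1-/- mouse 3 (7.14%, against 2.04%) and 5 without DJ-1-/- mouse 4 or 5 (5.95%, against 2.62 and 2.71%). Leaving out DJ-1+/+ mouse 1 or 3 or DJ-1-/- mouse 1 gave 4 (4.76%, against 2.68, 2.996 and 2.31%). The number stayed at 3 without DJ-1-/- mouse 2 (3.57%, against 1.95%) and without DJ-1+/+ mouse 4. In the last case the 3.57% lay near the 3.11% of all genes. Rps29, a zinc-binding protein of the small subunit's head, was the most abundant gene of the family. It was at 318, 323, 307 and 300.2 cpm in the wild types and at 332, 337, 324, 347 and 339 cpm in the knockouts, so DJ-1+/+ mouse 2 and DJ-1-/- mouse 3 almost met. The log2 fold change was 0.11 (SE 0.058, edgeR unadjusted p = 0.0849).

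The family was abundant and even in level. Of the 84 genes tested 68 had a mean above 100 cpm, the median was 150.3 cpm and the highest mean was 325 cpm. After Rps29 came Rplp1 (292 to 344 cpm over the 9 libraries), Rpl37 (292 to 348), Rps26 (242 to 323), Rps21 (237 to 313) and Rpl23a (240 to 276). The means of Rps29, Rplp1 and Rpl37 (325, 319 and 319 cpm) differed by less than the spread over libraries. Rpl37, a zinc-binding protein of the large subunit, was 314 ± 23.2 cpm (SD, n = 4) and 322 ± 16.9 cpm (SD, n = 5), and Rps26, which touches the mRNA upstream of the start codon, was 274 ± 35.5 and 303 ± 7.90 cpm. Rpl23a, which docks the signal recognition particle, was 249 ± 9.86 and 264 ± 11.4 cpm. None of these 3 had an unadjusted p under 0.05 by edgeR (0.618, 0.0645 and 0.162).

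The stalk proteins recruit elongation factors to the ribosome. Rplp1 was 314 ± 18.4 cpm (SD, n = 4) in wild-type and 323 ± 18.5 cpm (SD, n = 5) in knockout mice, Rplp2 was 199 ± 11.9 and 213 ± 6.57 cpm, and Rplp0, which anchors the other two on the rRNA, was 136 ± 11.98 and 131 ± 7.83 cpm. The log2 fold changes were 0.04 (SE 0.064), 0.10 (SE 0.065) and −0.05 (SE 0.078), none beyond the spread between mice. Rpsa, which is also known as the laminin receptor, was 144 ± 3.36 and 147 ± 9.70 cpm.

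Spread over the 9 libraries was close to what counting allows for many genes. Among the 73 genes with at least 50 counts in each library the coefficient of variation ran from 4.70% to 18.9% with a median of 8.37%. The steadiest were Rps29 (4.70%, where counting alone gives 5.69%), Rpl34 (4.92%) and Rpsa (5.06%). The most variable were Rps13 (18.9%, where counting alone gives 8.65%), Rpl35 (17.1%) and Rpl19 (16.1%). Rpl35, at the exit of the peptide tunnel, was at 84.3, 79.6, 82.6 and 100.4 cpm in the wild types and 112, 91.1, 91.8, 57.9 and 94.5 cpm in the DJ-1-/- mice, lowest in DJ-1-/- mouse 4. Rpl19 was at 87.9, 72.7, 113 and 93.7 cpm against 115, 103, 117, 79.6 and 98.4 cpm, lowest in DJ-1+/+ mouse 2 and DJ-1-/- mouse 4.

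Rps6, the ribosomal protein that S6 kinase phosphorylates and a common readout of mTOR activity, was low and erratic. It had 22, 12, 43 and 28 counts in the wild types and 57, 27, 47, 8 and 56 counts in the knockouts. DJ-1+/+ mouse 2 and DJ-1-/- mouse 4 were low, and the values of the genotypes overlapped over nearly their whole range. The level was 30.3 ± 15.1 cpm (SD, n = 4) and 38.6 ± 21.3 cpm (SD, n = 5), a log2 fold change of 0.35 with an SE of 0.42. Over the 9 libraries the coefficient of variation was 52.1%, where counting alone gives 17.3%. Of the 50-base stretches in its last 300 bases 83.3% occur in other genes, most in Rps6-ps4, which had 3 to 13 counts per library.

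Rps13, a small subunit protein that reaches towards the large subunit, was divided with a pseudogene. It had 139, 133, 101 and 101 counts in the wild types and 144, 168, 121, 104 and 192 in the DJ-1-/- mice. The processed pseudogene Rps13-ps1, on chromosome 8 from 87047689 to 87048226 on the plus strand, had 114, 135, 152 and 147 counts and 139, 144, 161, 181 and 15 counts. It thus took 45.1 to 63.5% of the sum in 8 libraries and 7.25% in DJ-1-/- mouse 5, where Rps13 was highest and the sum (202 cpm) lower than in the others (280 to 305 cpm).

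**Figure D5:**
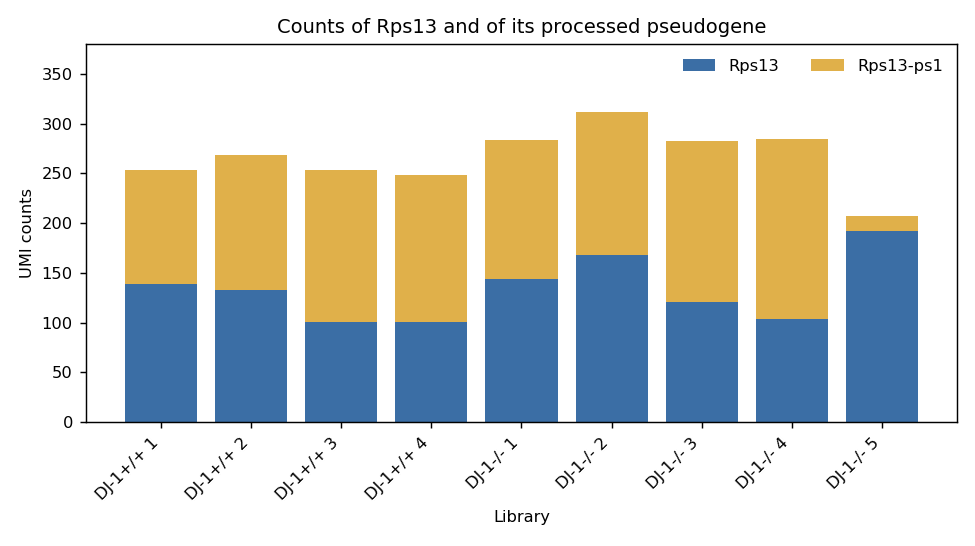
UMI counts (vertical axis from 0) of Rps13 and of its processed pseudogene Rps13-ps1, stacked, in each of the 9 libraries. The pseudogene has 114 to 181 counts in 8 libraries and 15 in DJ-1-/- mouse 5.

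The transcripts of the pair aligned over 522 bases and were identical in 520. Positions are counted from 1 at the 5′ end of the Rps13 transcript, with the Rps13 base first, and the differences are T499C, 90 bases from its 3′ end, and A517G, 72 bases from it. The windows below show 10 bases on each side with the differing base in capitals, since a read has to span one of them to tell the pair apart where they align.
Rps13 around T499C: tgctcccaccTaattggaaat
Rps13-ps1 around T499C: tgctcccaccCaattggaaat
Rps13 around A517G: aatatgagtcAtccacagcct
Rps13-ps1 around A517G: aatatgagtcGtccacagcct
The log2 fold change of Rps13 was 0.07 (SE 0.15) and became −0.12 when the counts of both were added. For Rps13 alone it was −0.048 without DJ-1-/- mouse 5, the library with 15 counts of the pseudogene. Its direction is thus not settled here.

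Near-identical copies run through the whole family. GENCODE M21 holds 301 annotated pseudogenes with an Rpl or Rps name, of which 167 had a count and 78 at least 10. They summed to 8.40 to 10.9 counts per 100 counts of the genes in wild-type and to 7.30 to 11.03 in DJ-1-/- mice. The -ps genes annotated as protein-coding are not in this sum. Of these Rpl10-ps3 had 679 counts over the 9 libraries, where Rpl10 had 643, and held 90.4% of the 3′ stretches of Rpl10. Stretches were taken from the last 300 bases of every protein-coding transcript of a gene and pooled, so the shares depend on how many transcripts are annotated. On this count 74 of the 86 genes shared at least 1 stretch of 50 bases with another annotated gene. Of these 42 shared over 50% of their stretches, and the median share over the 86 genes was 50%. Canonical genes that shared over 50% had a median of 149 cpm (n = 38) and the others 173 cpm (n = 38). How reads that match several places were counted is not given in the sources used here, so a count of such a gene can be too low or can hold reads of its copies.

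Of the canonical genes, Rpl24, Rps10, Rpl10a and Rps6 had the lowest means over the 9 libraries, 0.457, 10.8, 26.2 and 34.9 cpm. Rpl24 had 4 counts over the 9 libraries and did not pass the filter. Rps10 had 92 counts, with 15, 10, 10 and 5 in the wild types and 14, 13, 8, 8 and 9 in the DJ-1-/- mice, and the lowest log2 fold change of the family, −0.17 with an SE of 0.35. By exons Rpl24 overlaps the gene model Gm28037, and Rps10 overlaps RPS10-NUDT3, on the same strand. The part of this overlap in the low counts was not tested.

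In mean level the copy genes stood below their namesakes. Rps27rt, whose transcript is identical to that of Rps27 over 341 of 341 aligned bases, had 26.1 to 46.6 cpm in wild-type and 24.4 to 47.4 cpm in DJ-1-/- mice, against 150.1 to 183 and 137 to 163 cpm for Rps27. Reads of such a pair can be split by the counting, so both values are uncertain. Rps27 had a log2 fold change of −0.12 (SE 0.081). Rps27l, a copy known as a target of p53, was 57.3 ± 9.22 cpm (SD, n = 4) and 56.9 ± 9.44 cpm (SD, n = 5). Rpl22l1 was close to its namesake Rpl22, at 130 ± 13.5 and 122 ± 11.4 cpm against 147 ± 11.98 and 149 ± 14.1 cpm. Rpl7l1 was 73.0 ± 3.91 and 78.0 ± 6.52 cpm where Rpl7 was 161 ± 9.64 and 172 ± 9.93 cpm. Rpl36al was 45.6 ± 5.35 and 43.9 ± 5.91 cpm where Rpl36a was 156 ± 9.42 and 164 ± 5.53 cpm. None of these pairs held a gene with an unadjusted p under 0.05.

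The copy genes of muscle and testis were at or below the limit of detection. Rpl3l, known from heart and skeletal muscle, had 1, 0, 1 and 1 counts in the wild types and 0, 3, 2, 2 and 1 in the DJ-1-/- mice, 11 in all, just inside the filter. Rpl39l had 1, 3, 1 and 1 against 1, 5, 4, 2 and 1 counts, 19 in all. Rpl10l, known from male germ cells, had 0 counts in every library, which allows up to 3 counts in each. Group means of these genes are under 3 counts per library, and no fold is given. Their namesakes Rpl3 (176 ± 15.5 and 190 ± 11.999 cpm), Rpl39 (128 ± 13.1 and 123 ± 13.7 cpm) and Rpl10 (79.0 ± 9.36 and 73.0 ± 19.7 cpm) were well above it. Rps4x, the X-linked gene of the small subunit, was 99.3 ± 4.90 and 107 ± 7.84 cpm. Rps27a, made as a fusion with ubiquitin, was 183 ± 9.87 and 194 ± 20.02 cpm, and Rps19bp1 was 68.9 ± 2.98 and 74.6 ± 5.78 cpm. None of these 6 genes had an unadjusted p under 0.05 by edgeR.

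The other genes needed to make and run ribosomes were taken from 7 lists, and their difference from the family was not tested. Over these lists 120 genes were tested, 64 (53.3%) had a log2 fold change above 0, the median was 0.014 and 2 (1.67%) had an unadjusted p under 0.05. Over all tested genes 51.9% were above 0, the median was 0.0079 and 2.83% had such a p by edgeR, so these lists lay near the background. Fau, which encodes a small subunit protein but is named outside the rule, was 151 ± 8.28 cpm (SD, n = 4) and 146 ± 15.6 cpm (SD, n = 5). Of these 6 ribosomal and ribosome-bound genes 4 were above 0 with a median of 0.054, and the smallest p was that of Naca (log2 fold change 0.08, SE 0.079). Of 15 genes of rRNA transcription 11 were above 0 with a median of 0.045, led by p in Polr1c, a subunit of RNA polymerase I (−0.18, SE 0.099). Of 40 genes of ribosome assembly 19 were above 0 with a median of −0.0040, led by Emg1, an rRNA methyltransferase (−0.26, SE 0.16).

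Among translation factors, 6 of 10 elongation and poly(A)-binding genes were above 0 with a median of 0.036, led by Eef1a1, which also has a 5′ oligopyrimidine mRNA (−0.11, SE 0.083). Of 28 initiation factors 12 were above 0 with a median of −0.018. Eif3e, a subunit of initiation factor eIF3, was at 142 ± 13.1 cpm (SD, n = 4) in wild-type and 122 ± 7.84 cpm (SD, n = 5) in knockout mice (log2 fold change −0.21, edgeR unadjusted p = 0.0200, exact permutation p = 0.0476). Of 10 regulators of oligopyrimidine mRNAs 6 were above 0 with a median of 0.022, led by the kinase gene Rps6kb2 (0.23, SE 0.23). Of 11 tested genes of ribosome quality control 6 were above 0 with a median of 0.0079. Hbs1l, which releases stalled ribosomes, was at 68.6 ± 9.11 and 81.6 ± 6.65 cpm (log2 fold change 0.25, edgeR unadjusted p = 0.0443, exact permutation p = 0.0635). At an adjusted p under 0.05 both edgeR and DESeq2 called 0 of these 120 genes. At an unadjusted p under 0.05 DESeq2 called 1 of them, where it called 1.30% of all genes.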

How the data were processed

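RNA was isolated from midbrain tissue of 4 DJ-1+/+ and 5 DJ-1-/- mice with RNeasy kits, and 3′ libraries were made with the QuantSeq forward kit. The submitters' processing notes name fastp 0.20.0, STAR 2.7.3a, featureCounts 2.0.0 (Subread), UMI-tools 1.0.0 and GRCm38. The annotation release, the strand setting and the treatment of reads that map to several places are not given in the sources used here. The authors deposited UMI counts per Ensembl gene for each mouse, as whole numbers that were not normalized, and a gene without a count is not listed.

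The 9 tables were joined, with 0 for a gene not listed, and 26576 of 26602 genes were matched to GENCODE M21. The filter kept genes whose 9 counts summed to at least 10, and these were tested with edgeR 4.0.16 in R 4.3.3 (TMM, glmQLFit, glmQLFTest, genotype as the only term, Benjamini-Hochberg adjustment over all 18127 genes). The SE is the log2 fold change divided by the square root of F. Single genes were also compared in cpm, the count per 1000000 counts of the library, by exact two-sided permutation tests (scipy 1.17.1). Summed shares carry exact binomial 95% intervals and no test. Nothing states that replicates are other than separate animals, and p-values rest on the spread between them. For genes that varied less than counting alone gives, edgeR's p can be larger than the SE implies. Rpl9 varied so, with a coefficient of variation of 6.71% where counting alone gives 7.80%. The scripts were tested on simulated counts.

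The genes, lists and tests were chosen with earlier results of these data known. Named were Park7, the 6 most abundant genes, the 6 with the smallest p, those with the highest and lowest fold change, without overlap, with the 3 largest and 3 smallest coefficients of variation, the stalk genes, Rpsa, Rps6, Rps27a, Rps19bp1, copy genes with namesakes, genes near or below the filter, and the smallest p of each other list. Rpl24, Rps10 and Rps13 fall under this rule, and their gene overlaps, Rpl10a-ps1, Rps6-ps4 and Rps13-ps1 were looked up after the values were seen. Values of some single genes are not reported here, though they count in sums and medians. Of the 122 other pathway genes listed, 121 were found by symbol.

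Alternatives were RLE size factors, library totals, TMM without the family, DESeq2 1.42.0, 2 other filters, thinning to the smallest library, Xist as a covariate, libraries with Xist alone, the replicate number as a block, and each library left out. Adding -ps counts to their genes and using DJ-1+/+ mice 2 and 3 as the only controls were chosen after seeing the data. Protein sequences were not used here, since no table of them was at hand.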

Additional observations from a re-analysis of the deposited data

Results flagged for a closer look

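In 86 groups of 4 or 5 libraries, 6 had 1 library far from the others by Dixon's test at its 95% critical value, where chance gives about 4.3 (1 in 20), so these are given as values only. The counts of annotated Rpl and Rps pseudogenes per 100 counts of the family were 7.3 in DJ-1-/- mouse 5 and 10.16 to 11.03 in the other DJ-1-/- mice, the library in which Rps13-ps1 had 15 counts. Rpl37 was at 292 cpm in DJ-1-/- mouse 5 and at 324.2 to 333.3 cpm in the rest of its group. Rpl34, one of the steadiest genes, was at 152 cpm in DJ-1+/+ mouse 2 and at 166.3 to 167.5 cpm in the other DJ-1+/+ mice. The remaining values rest on 1 to 3 molecules in DJ-1+/+ mouse 2, with Rpl24 at 1.14 cpm where the others were at 0, Rpl39l at 3.41 cpm where the others were at 1.129 to 1.188, and Rpl3l at 0 cpm where the others were at 1.129 to 1.188, all below or near the floor of 3 counts.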

How the results depend on the processing

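At an adjusted p under 0.05 the number of ribosomal protein genes was 0 by edgeR and DESeq2 in the 18127-gene fit and in every alternative run. The number with an unadjusted p under 0.05 was 7 and ranged from 2 to 7 over all alternatives. It was 2 by DESeq2, with DJ-1+/+ mice 2 and 3 as the only controls, and with libraries with Xist alone, it was 4 on thinned counts, and it was 3 to 7 with each library left out. Under the other settings it was 5 to 7 (5.95 to 8.33%, against 2.46 to 3.15% of all genes). Over all genes the number with an unadjusted p under 0.05 was 513, and it was 235 by DESeq2, 338 with edgeR's filterByExpr, 802 without a filter and 338 (without DJ-1-/- mouse 2) to 732 with each library left out. The median log2 fold change of the family stayed above 0, at 0.033 in libraries with Xist alone and 0.056 to 0.074 with each library left out. The number of genes with a log2 fold change above 0 was 67 of 84, and 62 to 68 with each library left out, 58 of 83 with DJ-1+/+ mice 2 and 3 as the only controls and 56 of 83 in libraries with Xist alone. The share of counts was 0.0603 percentage points higher in DJ-1-/- mice, 0.0505 to 0.0698 with each library left out, 0.0372 with DJ-1+/+ mice 2 and 3 as the only controls and 0.0373 in libraries with Xist alone (both chosen after seeing the data). The number of genes without overlap was 3 (3.57%, against 1.25% of all genes). With each library left out it was 3 to 8 (3.57 to 9.52%, against 1.95 to 3.69%). It was 2 with RLE size factors, on thinned counts and with -ps counts added. The share of all genes was not computed under these settings, so these counts have no background.

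Of 39 named genes 12 turned direction in at least 1 alternative, all with unadjusted p-values above 0.05 by edgeR. Adding -ps counts gave a log2 fold change of 0.051 for Rps10 and −0.12 for Rps13. With DJ-1+/+ mice 2 and 3 as the only controls it was −0.0049 for Rpl37, −0.070 for Rpl22, 0.11 for Rps27l and −0.083 for Rps27rt. With Xist as a covariate it was −0.0014 for Rpl37, −0.020 for Rpl22 and −0.098 for Rps27rt. In libraries with Xist alone it was −0.019 for Rps13, −0.069 for Rpl22 and 0.17 for Rps27l, and on thinned counts −0.015 for Rpsa. With each library left out it ran from −0.24 to 0.0025 for Rpl10, −0.049 to 0.055 for Rpl22, −0.048 to 0.15 for Rpl35, −0.10 to 0.032 for Rpl36al, −0.11 to 0.0059 for Rpl39, −0.084 to 0.0018 for Rplp0, −0.40 to 0.11 for Rps10, −0.048 to 0.17 for Rps13, −0.12 to 0.060 for Rps27l and −0.062 to 0.21 for Rps27rt. The causes were not tested.

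Replicate numbers are shared by the genotypes in the labels, but no source ties mice of the same number together. Deviations of same-numbered libraries correlated at 0.29, 0.0411, −0.119 and −0.186, and the highest correlation of DJ-1+/+ mice 2, 3 and 4 was with another number, so the numbers were not taken as pairs. With the replicate block 5 ribosomal protein genes (5.95%, against 3.15% of all genes) had an unadjusted p under 0.05, and the median was 0.063. The log2 fold change was then −0.051 for Rps13 and 0.049 for Rps27l. Depth limits all of this to genes above about 3 counts per library.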

Other observations

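Some genes that belong to the family by origin lie outside the rule because GENCODE M21 does not annotate them as protein-coding. Rps4l, an autosomal copy of Rps4x, had 79, 64, 85 and 47 counts in the DJ-1+/+ and 96, 93, 92, 102 and 73 in the DJ-1-/- mice, nearly as many molecules as Rps4x itself (85.6 against 103 cpm over the 9 libraries). Its log2 fold change was 0.18 with an SE of 0.16. Rpl37rt, a retrotransposed copy of Rpl37, had 34, 51, 31 and 46 counts against 71, 74, 65, 54 and 42, and was picked out after its values were seen. Its log2 fold change was 0.37 (SE 0.18, edgeR unadjusted p = 0.0553, exact permutation p = 0.127), and DJ-1-/- mice 4 and 5 lay within the range of the DJ-1+/+ mice.

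Rps6, Rpl15, Rpl19, Rpl29, Rpl35, Rps2 and Rps24 each had their lowest values in DJ-1+/+ mouse 2 and DJ-1-/- mouse 4, across the genotypes. They were among 8 of the 82 genes with at least 90 counts (9.76%) of which this held, and the same pair of libraries was lowest for 887 of 12637 genes with at least 90 counts in all (7.02%), more often than any other of the 36 pairs of libraries. The share in the family is near that of all genes. Rpl15, chosen after its values were seen, was at 91.4, 51.1, 101 and 73.4 cpm in the DJ-1+/+ and at 92.1, 100.2, 91.8, 68.2 and 111 cpm in the DJ-1-/- mice. What sets this pair of libraries apart was not tested.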
